A study of Homo sapiens with 47 samples.

Results

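The 28 intervals described here are places in the human genome where H3K27ac peaks recurred in cells given dCas9-p300(core) and were rare in cells given dCas9-VP16(10x). H3K27ac is acetylation of lysine 27 of histone H3, a mark of active promoters and enhancers. The peaks of all 20 H3K27ac peak lists were merged where they shared at least 1 bp, which gave 41675 intervals, of which 41643 lay over 5 kb from the 19 targeted loci. An interval was kept when at least 5 of the 10 dCas9-p300(core) lists and at most 2 of the 10 dCas9-VP16(10x) lists had a peak in it, and 28 of the 41643 intervals met this rule (0.0672%). The H3K27ac lists chose the intervals, so H3K27ac values are given as a description with no test.

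All libraries came from Ishikawa cells, a human endometrial adenocarcinoma line, kept in hormone-depleted medium and transfected with a dCas9 fusion plasmid and a pool of guide RNA (gRNA) plasmids, followed by drug selection for both. dCas9 is a nuclease-dead Cas9 that carries a fused activator to the sites its gRNAs match. dCas9-VP16(10x) carries 10 copies of the VP16 activation domain, and dCas9-p300(core) carries the catalytic core of the acetyltransferase p300, encoded by EP300, in a copy of the same vector. The gRNA pools were Pool 1, Pool 2 and Pool 3, each against 4 estrogen receptor binding sites (ERBSs), Adjacent, against sites next to the ERBSs, ERBS, which combined Pools 1 to 3, and IL1RN, against the IL1RN promoter as a control. H3K27ac and RNA polymerase II (RNAPII) were each profiled in 10 libraries per construct (5 pools, 2 libraries each), and the HA tag on dCas9 in 2 dCas9-p300(core) and 5 dCas9-VP16(10x) libraries. The label of dCas9-VP16(10x) Adjacent replicate 1 of the H3K27ac lists also names the IL1RN gRNAs. Nothing says that the 2 libraries of a pool came from separate cultures, so p-values measure the spread between libraries only, and in whole-culture chromatin more cells with a mark and more mark per cell cannot be told apart.

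H3K27ac is written largely by p300 and its paralog CBP, which are recruited to enhancers by transcription factors. The core fused to dCas9 holds the bromodomain, which binds acetylated lysine, and the catalytic acetyltransferase domain. The coding sequence of the core joins EP300 exons that the genome keeps apart with introns between them.

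The lists differed in ways that run through every result below. In all, 6 of the 10 dCas9-p300(core) and 5 of the 10 dCas9-VP16(10x) H3K27ac lists carry the same number in their peak names (the shared identifier), and the other 9 lists carry none. What the number stands for is not given in the sources used here. The titles of all 23 lists without it, over the 3 antibodies, hold the word stringent and those of the 24 lists with it do not, so any difference in peak calling that the word marks cannot be told apart from the identifier. The lowest −log10 p of a H3K27ac list was nonetheless alike, 10.0 to 10.1 in lists titled stringent and 10.0 to 10.6 in the others. The dCas9-p300(core) lists held 5599 to 24280 peaks with the identifier and 1805 to 4346 without it, and the dCas9-VP16(10x) lists held 5322 to 32052. All 10 dCas9-p300(core) RNAPII lists carry this identifier and none of the 10 dCas9-VP16(10x) RNAPII lists does, so in RNAPII the identifier, the title word and the construct cannot be told apart. Of these dCas9-VP16(10x) RNAPII lists, replicate 2 of Pools 1, 2 and 3 carries no number, and the others carry a different one, 15968. In the H3K27ac list of dCas9-VP16(10x) Pool 1 replicate 2, the peak names hold a p where the label has a v. None of the 28 intervals had a peak in that H3K27ac list. The promoters of KRT8, KRT18, PAX8 and EMX2, markers of endometrial epithelium, had H3K27ac peaks in 20 of 20 lists. Of the other 7 epithelial markers, EPCAM had them in 17, KRT19 and HOXA10 in 15 each, SOX17 in 12, CDH1 in 11, HOXA11 in 8 and FOXA2 in 0. The blood markers PTPRC and CD3E had them in 0 and SPI1 in 1, and the fibroblast markers COL1A1 and TWIST1 in 12 each and COL1A2 in 1, so the fibroblast markers were not all absent.

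By position the 28 intervals fell into 4 sets, drawn up after their positions were seen. Exons of EP300 that encode the p300 core were covered by 5, 10 lay within 2 Mb of an assembly gap of at least 1 Mb, 12 lay in or at other genes, and 1 was intergenic near NOC4L. Sequences of some intervals of each set follow. The EP300 sequences (plus strand of hg19) have the exon in capitals and 20 bases of intron on each side in lower case, since the peaks stood on the exons. Exon 19 is at chr22:41554396-41554524, exon 20 at chr22:41556626-41556746, exon 21 at chr22:41558707-41558803, exon 22 at chr22:41560037-41560154 and exon 23 at chr22:41562583-41562690, flanks included.
EP300 exon 19: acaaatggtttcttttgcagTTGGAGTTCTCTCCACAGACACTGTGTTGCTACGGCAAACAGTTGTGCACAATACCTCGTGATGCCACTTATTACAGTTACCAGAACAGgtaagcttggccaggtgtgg
EP300 exon 20: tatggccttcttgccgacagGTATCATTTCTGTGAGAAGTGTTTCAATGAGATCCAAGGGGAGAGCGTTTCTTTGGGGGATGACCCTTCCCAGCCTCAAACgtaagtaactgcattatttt
EP300 exon 21: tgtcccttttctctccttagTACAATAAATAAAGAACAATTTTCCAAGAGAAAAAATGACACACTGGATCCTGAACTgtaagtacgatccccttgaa
EP300 exon 22: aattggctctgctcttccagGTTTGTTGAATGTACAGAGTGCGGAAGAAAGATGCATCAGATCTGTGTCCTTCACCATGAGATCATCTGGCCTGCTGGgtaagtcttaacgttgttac
EP300 exon 23: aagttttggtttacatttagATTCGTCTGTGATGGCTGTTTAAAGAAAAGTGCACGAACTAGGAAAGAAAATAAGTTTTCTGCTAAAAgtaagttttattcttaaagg

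The 6 windows of 200 bases below show examples of the other sets, each placed around the median H3K27ac summit of the dCas9-p300(core) lists. Capitals mark bases inside a 20-base word that occurs more than once in the same interval. Summits of single lists also lay outside these windows. Counted from the first base of the window, they ran from -1333 to 127 near PRIM2 and from -109 to 126 near TP53TG3B. The window near TP53TG3B is chr16:33294013-33294212, that near GOLGA6L6 is chr15:20546420-20546619, that near ZNF33B is chr10:42355428-42355627 and that near PRIM2 is chr6:58778800-58778999, all within 2 Mb of an assembly gap. The window near NOC4L is chr12:132641276-132641475 and that in COL18A1 is chr21:46894566-46894765. All are read on the plus strand of hg19.
near TP53TG3B: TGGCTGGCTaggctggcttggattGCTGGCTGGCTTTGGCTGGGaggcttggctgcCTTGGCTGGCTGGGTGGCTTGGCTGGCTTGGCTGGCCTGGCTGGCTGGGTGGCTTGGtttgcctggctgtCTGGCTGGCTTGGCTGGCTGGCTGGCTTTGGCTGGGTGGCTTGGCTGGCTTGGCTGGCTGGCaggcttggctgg
near GOLGA6L6: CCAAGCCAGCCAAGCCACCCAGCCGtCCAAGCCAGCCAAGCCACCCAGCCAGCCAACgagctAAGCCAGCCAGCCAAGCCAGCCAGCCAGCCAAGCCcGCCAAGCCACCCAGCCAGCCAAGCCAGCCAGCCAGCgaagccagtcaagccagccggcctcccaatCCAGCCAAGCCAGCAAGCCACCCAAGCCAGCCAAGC
near ZNF33B: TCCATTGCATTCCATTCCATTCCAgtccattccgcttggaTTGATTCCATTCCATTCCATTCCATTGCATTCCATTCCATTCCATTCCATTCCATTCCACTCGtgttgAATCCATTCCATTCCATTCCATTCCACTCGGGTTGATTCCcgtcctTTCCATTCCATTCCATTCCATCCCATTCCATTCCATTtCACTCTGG
near PRIM2: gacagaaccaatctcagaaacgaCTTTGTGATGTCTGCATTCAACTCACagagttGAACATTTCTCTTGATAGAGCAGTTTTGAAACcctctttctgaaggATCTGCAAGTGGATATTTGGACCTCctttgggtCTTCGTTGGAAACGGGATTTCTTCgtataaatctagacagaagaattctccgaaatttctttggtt
near NOC4L: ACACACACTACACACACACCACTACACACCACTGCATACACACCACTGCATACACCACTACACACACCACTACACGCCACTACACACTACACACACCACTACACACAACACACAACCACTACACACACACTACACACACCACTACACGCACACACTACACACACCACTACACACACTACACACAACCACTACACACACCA
COL18A1: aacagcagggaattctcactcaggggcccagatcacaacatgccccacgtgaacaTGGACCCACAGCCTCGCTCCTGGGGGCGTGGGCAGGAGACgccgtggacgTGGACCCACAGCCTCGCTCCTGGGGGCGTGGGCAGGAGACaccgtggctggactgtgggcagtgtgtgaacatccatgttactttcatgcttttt

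Over EP300, the 28 intervals held 5 exons in a row. EP300 lies on the plus strand of chromosome 22, and the ends of the cloned core, placed by the primers of the insert, lie at 41548354 in exon 16 and 41572463 in exon 30 of its 31 exons (hg19). Exon 16 adds 1 base, and the 15 exons sum to 1851 of the 24110 bases between the ends (7.68%). The 5 intervals chosen by the rule covered exons 19, 20, 21, 22 and 23, each in an interval of 480 to 516 bp.

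At exon 19 the fold enrichment of the peak over background, as MACS2 gives it, ran from 30.7 to 43.0 over 6 dCas9-p300(core) lists, with a median of 37.0. The median was 20.5 at exon 20 (16.0 to 21.1, 6 lists) and 14.8 at exon 21 (12.2 to 15.8, 5 lists). Exon 22 had a median of 29.98 (23.4 to 31.5, 6 lists) and exon 23 had 22.4 (17.9 to 25.8, 6 lists). All of these lists carried the shared identifier, and the 4 dCas9-p300(core) lists without it had no peak on any core exon. Peaks in dCas9-VP16(10x) were found at exons 19, 20 and 22 in Pool 1 replicate 1 (fold 15.8, 8.45 and 12.4) and Pool 3 replicate 1 (fold 11.8, 12.6 and 12.2). These values lay below every dCas9-p300(core) value at the same exon.

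**Figure D1:**
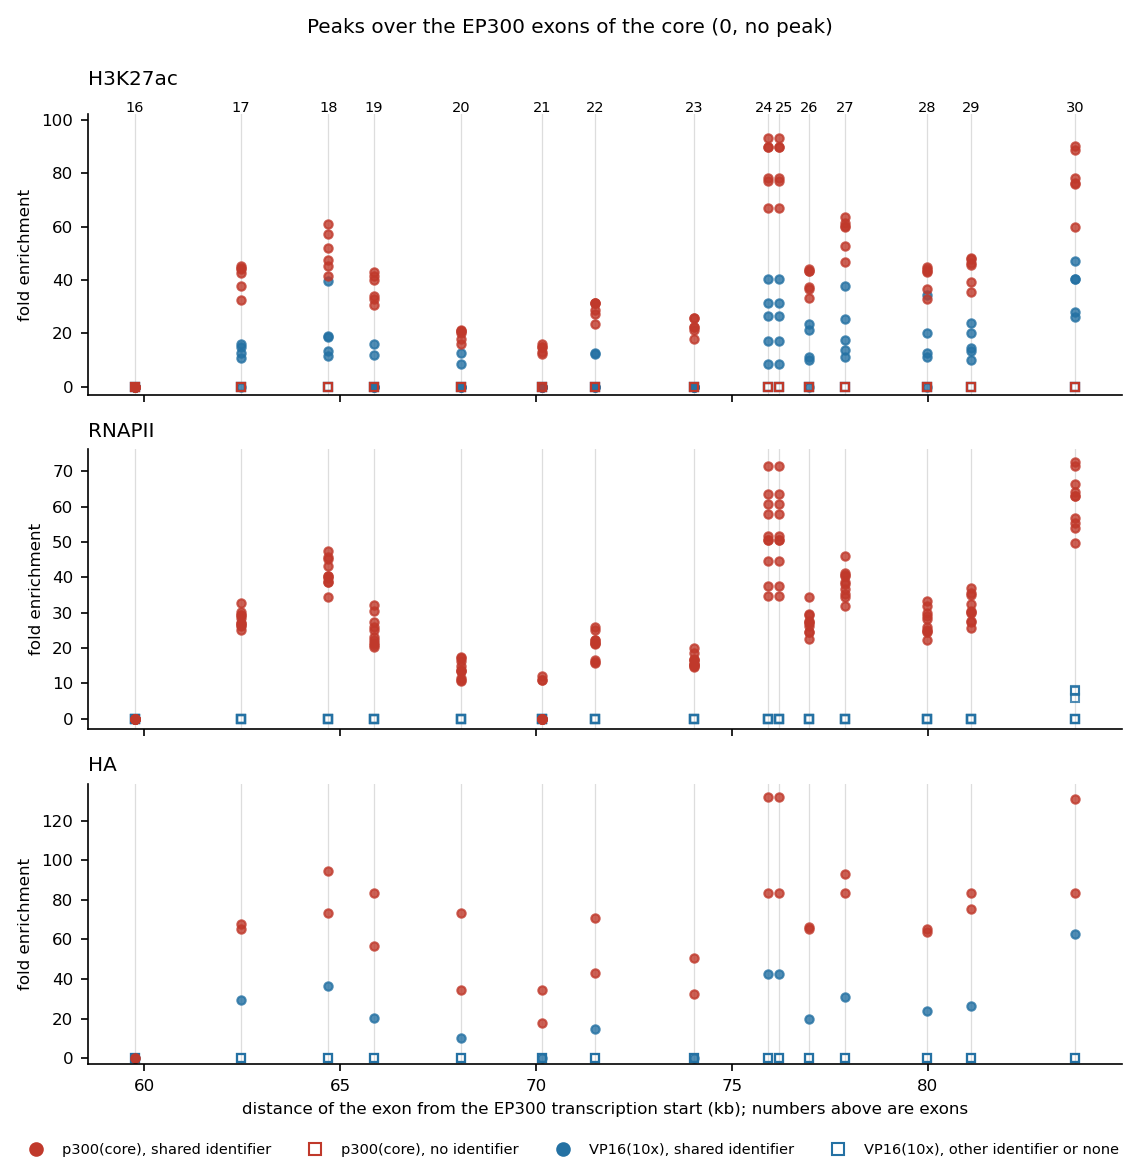
Fold enrichment of the peak over each EP300 exon of the p300 core (y axis, 0 where a list had no peak) against distance from the EP300 transcription start in kb (x axis), for H3K27ac, RNAPII and HA; each point is 1 list, filled where the list carries the shared identifier, and exons 24 and 25 lie under the same H3K27ac peaks. Filled dCas9-p300(core) points reach highest at every exon but exon 16, where there are none above 0; filled dCas9-VP16(10x) points above 0 lie below every filled dCas9-p300(core) point of the same exon except at exon 28 in H3K27ac, and open points lie at 0 except 3 dCas9-VP16(10x) RNAPII lists at exon 30.

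The 9 longer core exons did not enter the rule's selection because more dCas9-VP16(10x) lists had peaks there. The 5 selected exons were 57 to 89 bp long, and exons 17, 18 and 24 to 30 contribute 114 to 240 bp each. At those 9 exons the 6 identifier-bearing dCas9-p300(core) lists all had a peak, with median folds of 40.3 to 84.1, against 14.8 to 37.0 at the 5 selected exons. Between 4 and 5 of the 5 identifier-bearing dCas9-VP16(10x) lists had a peak there too, and no list without the identifier did. Across the 12 core exons with a peak of their own, fold followed exon length for H3K27ac (Spearman's rho 0.937), RNAPII (rho 0.930) and HA (rho 0.881) in dCas9-p300(core). The exons share their libraries, so this is a description across exons and not a test.

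Within the shared identifier, 5 pairs of lists had the same pool and replicate number in both constructs. Where both lists of a pair had a peak on a core exon, the dCas9-p300(core) fold was the higher at every exon: 9 of 9 in Adjacent replicate 2, 6 of 6 in IL1RN replicate 1, 12 of 12 in Pool 1 replicate 1, 9 of 9 in Pool 2 replicate 1 and 12 of 12 in Pool 3 replicate 1. The median ratio of the folds was 3.54, 4.33, 2.52, 3.76 and 1.97 in that order. dCas9-VP16(10x) lists of this set thus had 6 to 12 core exons with a peak, although their plasmid has no p300 sequence. Where those peaks came from was not tested.

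Peak summits stood on the coding bases rather than between them. Of 120 H3K27ac peaks between the ends of the core, 113 had their summit inside a core exon (94.2%), as did 115 of 127 RNAPII peaks (90.6%) and 36 of 38 HA peaks (94.7%), against the 7.68% of that stretch that is exonic. The 16 exons of EP300 outside the core had peaks at 0 to 2 per list. The interval at the EP300 promoter, chr22:41486885-41489692, had H3K27ac peaks in 9 dCas9-p300(core) and 10 dCas9-VP16(10x) lists and RNAPII peaks in all 20 lists. Every 50-base word of the 5 EP300 intervals occurs once in the genome, so 50-base reads from them could be placed uniquely. The dCas9-p300(core) plasmid carries the bases of these exons too, so unique placement does not tell which of them a read came from. The source of the reads was not tested.

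RNAPII lists took no part in the rule, so their peaks were compared by a test. The test cannot tell the construct from the identifier, which every dCas9-p300(core) RNAPII list carries and no dCas9-VP16(10x) RNAPII list does. Nor is it independent of the choice of intervals, since 27 of the 28 had dCas9-p300(core) H3K27ac peaks only in lists with the identifier. At each of the 41643 intervals the numbers of lists with an RNAPII peak, out of 10 per construct, were compared by a two-sided Fisher's exact test with Benjamini-Hochberg adjustment over all intervals. Of the 28 intervals 4 were called, all with RNAPII peaks in more dCas9-p300(core) lists, against 0.375% of all intervals in that direction (156 intervals, and 50 intervals or 0.12% in the other, 0.495% in either). The 4 were EP300 exons 19, 20, 22 and 23, each with a peak in 10 of 10 dCas9-p300(core) lists and 0 of 10 dCas9-VP16(10x) lists (Fisher's exact test, adjusted p = 0.0173). That is the strongest outcome 10 against 10 lists allow. The counts depended on the test and on single lists: limma on the log2 fold called 10 of the 28 and 10204 intervals higher in dCas9-p300(core) against 1169 in dCas9-VP16(10x). Leaving out 1 list gave 4 to 7 of the 28 and 156 to 998 of all intervals, the last without dCas9-p300(core) IL1RN replicate 1.

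RNAPII fold at exon 19 ran from 20.2 to 32.2 over the 10 dCas9-p300(core) lists, with a median of 24.2. Medians were 13.7 at exon 20 (10.8 to 17.3), 21.3 at exon 22 (15.8 to 25.8) and 16.0 at exon 23 (14.7 to 20.1). At exon 21 only 3 dCas9-p300(core) lists and no dCas9-VP16(10x) list had a peak (adjusted p = 0.992). Peaks were thus present at 4 exons in every library with one construct and in no library with the other, but the identifier and the title word divide the libraries in the same way.

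In all, 17 intervals had RNAPII peaks in all 10 dCas9-p300(core) lists and no dCas9-VP16(10x) list (0.0408%). Of these, 11 were in the EP300 core, among them the 4 selected exons. The other core exon intervals called were those of exons 17, 18, 24 with 25, 26, 27, 28 and 29, and exon 30 had peaks in 10 against 3 lists (adjusted p = 0.114).

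HA marks the dCas9 fusion itself. The 2 dCas9-p300(core) HA lists, both with the identifier and ERBS gRNAs, were short, with 154 and 141 peaks, of which 14 and 13 lay over core exons of EP300. The highest EP300 peak ranked 1 by fold in both lists. HA peaks in both lists were present at 8 of the 28 intervals, against 0.072% of all intervals, and 5 of the 8 were the EP300 exons. At exon 19 the HA fold was 83.6 in ERBS replicate 1 and 56.8 in ERBS replicate 2, and at exon 23 it was 50.9 and 32.6. The dCas9-VP16(10x) Adjacent replicate 2 HA list, which carries the identifier, had peaks at 12 core exons with a median fold of 27.9, and the other 4 dCas9-VP16(10x) HA lists, without it, had none. Core exons thus had peaks with 3 antibodies, but only in lists with the identifier, apart from 3 dCas9-VP16(10x) RNAPII lists at exon 30. Finding the peaks with 3 antibodies therefore does not separate the construct from the identifier. In H3K27ac both constructs have lists with the identifier, and their folds are compared above.

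The interval near TP53TG3B was the only one of the 28 with H3K27ac peaks both in lists with the identifier and in lists without it. It spans chr16:33293625-33294561, 937 bp of intergenic sequence 32010 bp from the closest start of a protein-coding gene. H3K27ac peaks were found in 9 of 10 dCas9-p300(core) lists and 0 of 10 dCas9-VP16(10x) lists. With the identifier the folds were 48.4 (Adjacent replicate 1), 37.5 (Adjacent replicate 2), 36.9 (IL1RN replicate 1), 8.98 (Pool 1 replicate 1), 6.88 (Pool 2 replicate 1) and 14.5 (Pool 3 replicate 1). Without it they were 9.78 (IL1RN replicate 2), 9.55 (Pool 1 replicate 2) and 7.37 (Pool 3 replicate 2), and Pool 2 replicate 2 had no peak. The 3 highest values belonged to the Adjacent and IL1RN libraries. RNAPII peaks were found in 3 dCas9-p300(core) lists and no dCas9-VP16(10x) list (Fisher's exact test, adjusted p = 0.992), and HA peaks in 2 dCas9-VP16(10x) lists (fold 5.69 and 17.1) and in neither dCas9-p300(core) list.

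**Figure D2:**
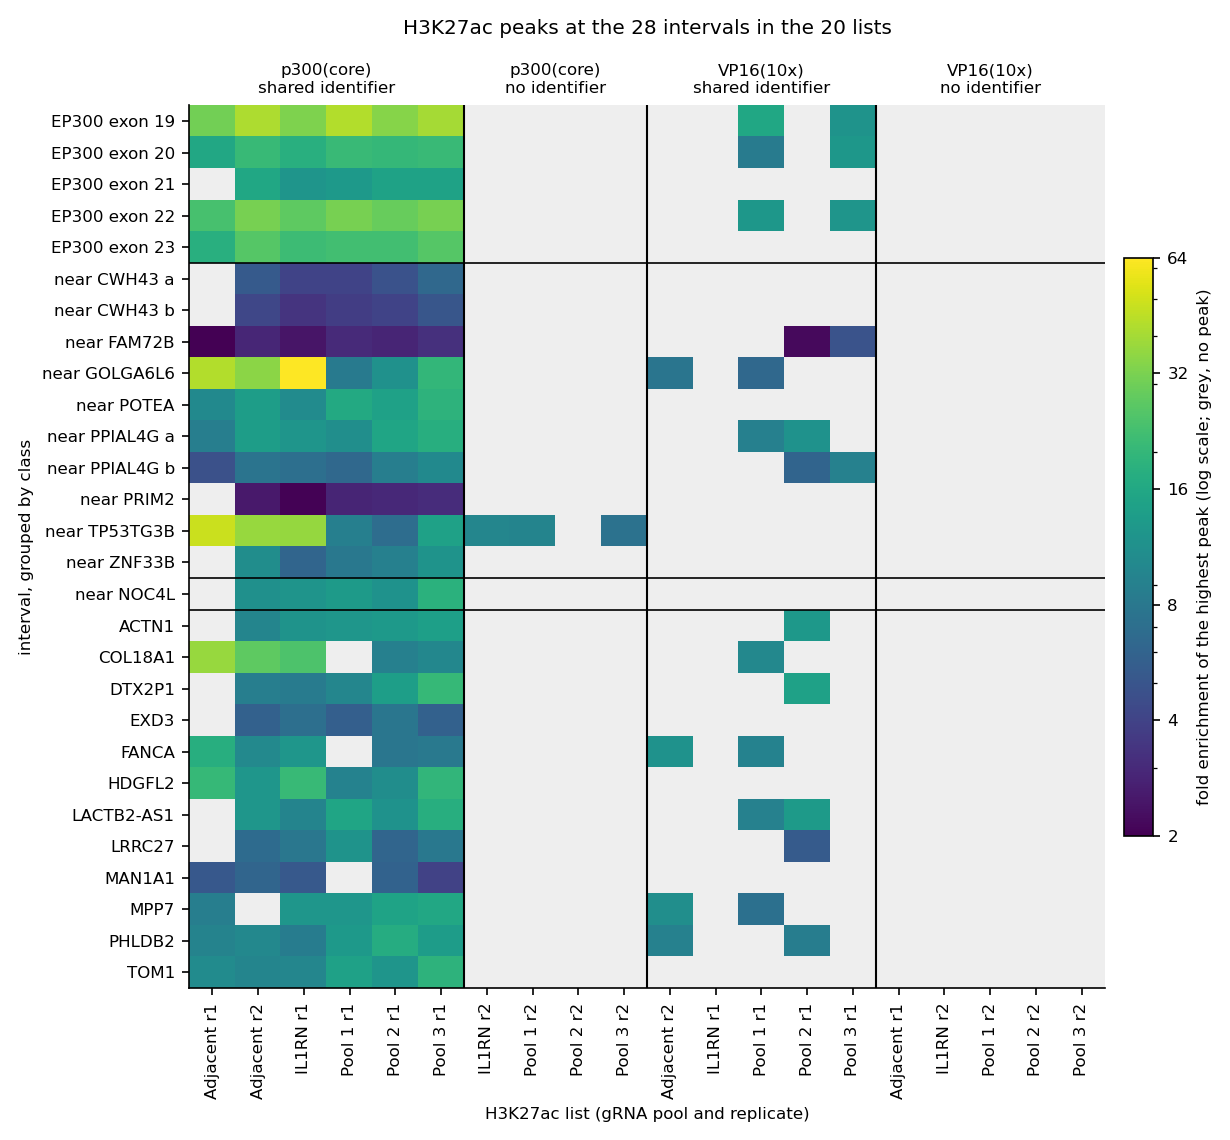
Fold enrichment of the highest H3K27ac peak (colour, log scale; grey, no peak) at the 28 intervals (rows, by set) in the 20 H3K27ac lists (columns, by construct and identifier); the letters a and b separate 2 intervals with the same closest gene. Colour fills the 6 columns of dCas9-p300(core) lists with the identifier, is thin in the 5 dCas9-VP16(10x) columns with it, and is absent from the lists without it except for 3 dCas9-p300(core) cells near TP53TG3B.

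The 10 intervals by assembly gaps were all intergenic, on chromosomes 1, 4, 6, 8, 10, 15 and 16. Such gaps are mostly centromeres and the repeat arrays around them, which the assembly leaves out or holds in part. Their distances to the gap ran from 0 bp near FAM72B to 1991240 bp near TP53TG3B. Of all 41643 intervals 2.09% lie within the same 2 Mb of a gap, against 10 of the 28. This limit was set after the positions were seen, so the comparison is a description. Each of the 10 repeated at least 10% of its 20-base words within itself, as did 57.1% of the 28 intervals and 1.34% of all intervals. The median share of 50-base words found once in the genome was 89.6% over the 10 intervals (78.8% to 100%).

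The GGAAT motif, the unit of human satellites 2 and 3, was frequent in 5 of these intervals. GGAAT, counted on both strands, occurred at 119 copies per kb near ZNF33B, at 113 and 104 in the pair near CWH43, and at 49.2 and 53.2 in the pair near PPIAL4G. At least 40 copies per kb were found in 5 of the 28 intervals and in 0.221% of all intervals. The H3K27ac folds over dCas9-p300(core) lists were 6.17 to 11.9 near ZNF33B (5 lists), 4.01 to 6.48 and 3.37 to 5.06 near CWH43 (5 lists each), and 8.85 to 17.5 and 4.72 to 10.4 near PPIAL4G (6 lists each). The ZNF33B and CWH43 intervals had no dCas9-VP16(10x) peak, and those near PPIAL4G had 2 each, at folds of 6.11 to 11.7 that fell inside the dCas9-p300(core) range.

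The intervals near GOLGA6L6 and TP53TG3B shared a different repeat. The bases AGCCA, on both strands, occurred at 150 and 136 copies per kb there, and at least 40 copies per kb were found in 0.0624% of all intervals. Near GOLGA6L6 the folds were 43.1, 34.9 and 66.7 in Adjacent replicates 1 and 2 and IL1RN replicate 1, and 8.33, 11.5 and 19.8 in Pools 1, 2 and 3. The Adjacent and IL1RN libraries were again the highest. Their folds were higher over all peaks too, with list medians of 16.1, 17.5 and 18.7 against 8.98, 10.7 and 9.58 in the Pool 1, 2 and 3 lists with the identifier, while TOM1, ACTN1 and the interval near NOC4L were highest in Pool 3 replicate 1. Near GOLGA6L6, 2 dCas9-VP16(10x) lists had peaks at 7.68 and 6.46. HA peaks were found there in 1 dCas9-p300(core) and 2 dCas9-VP16(10x) lists (fold 6.57, 9.96 and 9.60).

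The lowest folds of the set were near FAM72B (1.92 to 3.23 over 6 lists) and near PRIM2 (2.03 to 3.09 over 5 lists), both against a gap. Near FAM72B a dCas9-VP16(10x) value, 4.89 in Pool 3 replicate 1, exceeded every dCas9-p300(core) value. HA peaks in both dCas9-p300(core) lists were found near FAM72B (9.44 and 5.68), near PRIM2 (10.6 and 4.46) and near POTEA (29.3 and 16.0). Of the 10 intervals 0 were called in RNAPII by Fisher's exact test, with 0 also under an unadjusted p of 0.05, and 5 had an RNAPII peak in any list.

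**Figure D3:**
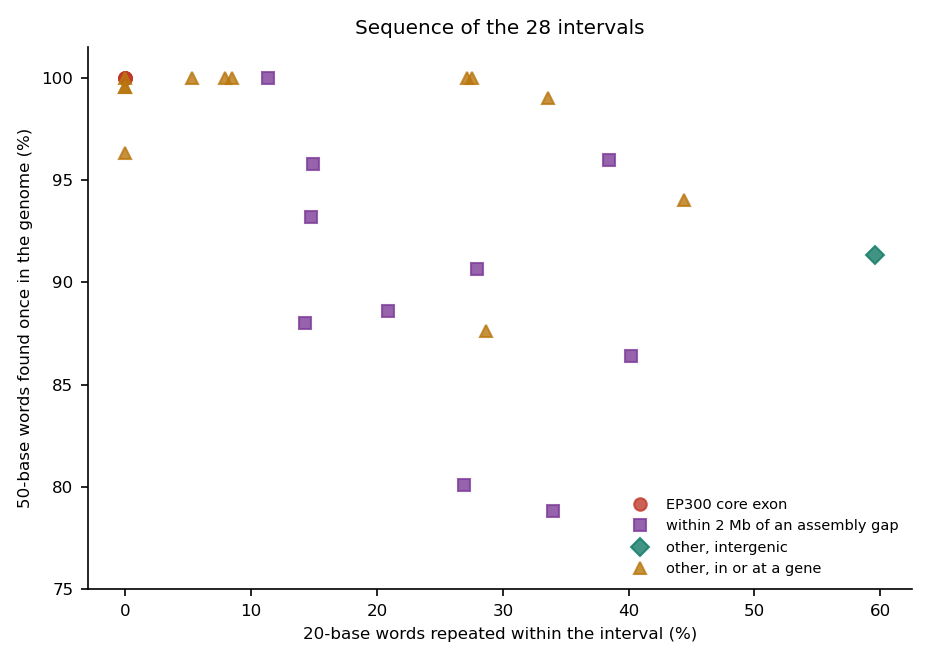
Share of 50-base words found once in the genome (y axis, percent) against share of 20-base words repeated within the interval (x axis, percent) for the 28 intervals, with a symbol for each set. The 5 EP300 exons sit together at 0% and 100%, the 10 intervals by gaps spread between 11.3% and 40.2% on the x axis, and the interval near NOC4L is farthest right at 59.5%.

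Of the 12 intervals at other genes, 7 were intronic, 2 exonic and 3 within 1 kb of an annotated transcript start. Across the 28 intervals 17.9% lay within 1 kb of a transcript start, against 53.2% of all intervals. At least 10% of 20-base words were repeated within the interval in 5 of the 12. MPP7, PHLDB2, MAN1A1 and LACTB2-AS1 repeated 0%, so the COL18A1 window does not stand for all 12. Some of the 12 held a CA-rich repeat. ACACC, counted on both strands, reached 77.9 copies per kb in DTX2P1-UPK3BP1-PMS2P11 and 57.7 in ACTN1, and at least 40 copies per kb were found in 3 of the 28 intervals and 0.137% of all.

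TOM1 encodes an adaptor of endosomal sorting, and HDGFL2 a chromatin reader with a PWWP domain. The TOM1 interval repeated 33.6% of its 20-base words within itself. In TOM1 the H3K27ac folds ran from 9.72 to 18.7 with a median of 11.4 over 6 dCas9-p300(core) lists. In HDGFL2 (chr19:4492220-4494535, over exons 7 to 9) they ran from 9.25 to 20.5 with a median of 16.0 over 6 lists. Neither interval had a dCas9-VP16(10x) peak, and every list with a peak carried the identifier. Both had RNAPII peaks in 8 dCas9-p300(core) lists and 0 dCas9-VP16(10x) lists, which did not pass the test (Fisher's exact test, adjusted p = 0.0596). RNAPII folds there ran from 6.36 to 12.9 in TOM1 and from 6.17 to 14.4 in HDGFL2.

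The interval near NOC4L, a ribosome assembly factor, is intergenic, 2466 bp long, at chr12:132640367-132642832, with 38.5 copies of ACACC per kb. Its H3K27ac folds were 11.4 (Adjacent replicate 2), 12.1 (IL1RN replicate 1), 13.3 (Pool 1 replicate 1), 11.7 (Pool 2 replicate 1) and 18.3 (Pool 3 replicate 1), with no dCas9-VP16(10x) peak. RNAPII peaks were found in 4 dCas9-p300(core) lists and 0 dCas9-VP16(10x) lists (Fisher's exact test, adjusted p = 0.564). It was also the interval nearest to a region counted by the study, 294 kb away.

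COL18A1 encodes collagen XVIII, ACTN1 the actin crosslinker alpha-actinin and MAN1A1 a Golgi mannosidase. COL18A1 (chr21:46894089-46896333, over exons 5 and 6) had folds of 37.3, 27.1, 24.4, 9.04 and 9.94 in Adjacent replicates 1 and 2, IL1RN replicate 1, Pool 2 replicate 1 and Pool 3 replicate 1, and 10.1 in dCas9-VP16(10x) Pool 1 replicate 1. The dCas9-VP16(10x) value lay inside the dCas9-p300(core) range, and the Adjacent and IL1RN libraries were highest. RNAPII peaks were present in 5 against 0 lists in COL18A1 (adjusted p = 0.314), 7 against 0 in ACTN1 (adjusted p = 0.114) and 7 against 1 in MAN1A1 (adjusted p = 0.274), each by Fisher's exact test. Under an unadjusted p of 0.05, 9 of the 28 intervals had more dCas9-p300(core) lists, against 7.78% of all intervals: 4 EP300 exons, TOM1, HDGFL2, ACTN1, MAN1A1 and COL18A1.

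FANCA, whose product is part of the Fanconi anemia DNA repair complex, differed from the rest. Its interval (chr16:89798974-89799623, also in ZNF276) had RNAPII peaks in all 20 lists, at folds of 29.1 to 46.8 with dCas9-p300(core) and 7.61 to 25.3 with dCas9-VP16(10x). RNAPII fold was higher over whole lists as well, with medians over all peaks of 9.63 to 16.1 in dCas9-p300(core) lists and 7.97 to 10.6 in dCas9-VP16(10x) lists, and its part in the values at FANCA was not tested. EXD3 (fold 5.68 to 7.76, 5 lists) had no dCas9-VP16(10x) peak, and LRRC27, PHLDB2, MPP7, LACTB2-AS1 and DTX2P1-UPK3BP1-PMS2P11 had 1 or 2, and in all 13 of the 28 intervals had no dCas9-VP16(10x) list with a peak, 4 had 1 and 11 had 2.

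**Figure D4:**
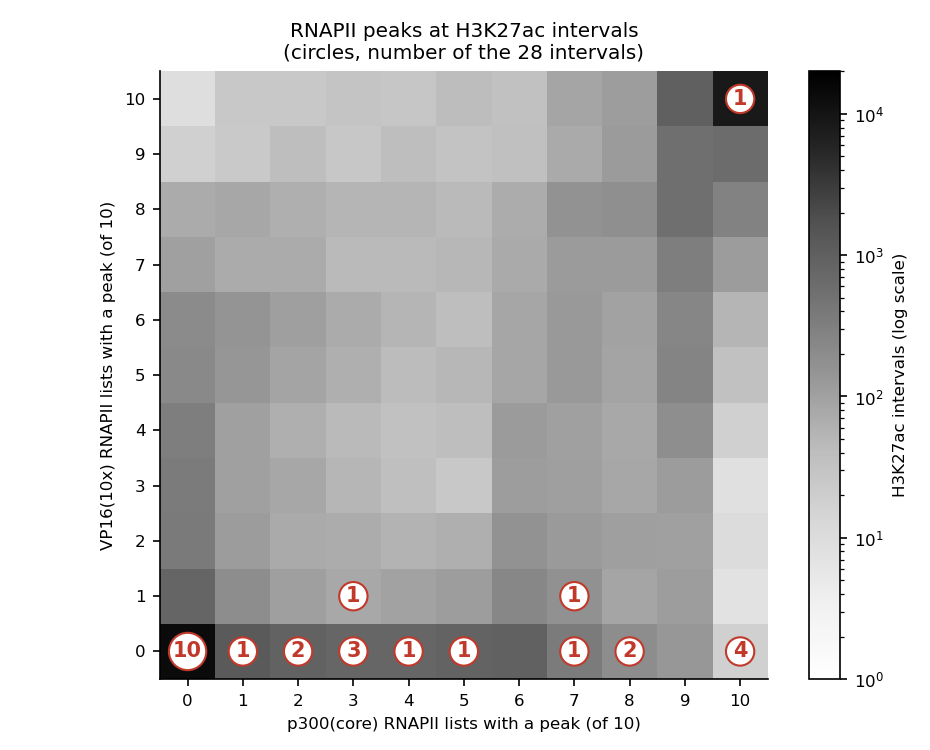
Number of dCas9-p300(core) (x axis) and dCas9-VP16(10x) (y axis) RNAPII lists with a peak at each of the 41643 H3K27ac intervals (grey, number of intervals on a log scale), with the 28 intervals counted in the circles. Of the 28, 10 had no RNAPII peak in any list, 4 had 10 against 0, and FANCA is at 10 against 10.

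RNAPII peaks in any list were found at 18 of the 28 intervals, against 67.4% of all intervals. HA peaks in any dCas9-p300(core) list were found at 12 (0.377% of all) and in any dCas9-VP16(10x) list at 8 (48.8% of all).

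Set beside the identifier, the lists divided as follows. The 6 identifier-bearing dCas9-p300(core) lists had peaks at 17 (Adjacent replicate 1), 27 (Adjacent replicate 2), 28 (IL1RN replicate 1), 25 (Pool 1 replicate 1), 28 (Pool 2 replicate 1) and 28 (Pool 3 replicate 1) of the intervals. The 4 without it had 0 or 1. The 5 dCas9-VP16(10x) lists with it had 4 (Adjacent replicate 2), 0 (IL1RN replicate 1), 9 (Pool 1 replicate 1), 8 (Pool 2 replicate 1) and 5 (Pool 3 replicate 1), and the 5 without it had 0. All 26 dCas9-VP16(10x) peaks at the intervals came from lists with the identifier, and 27 of the 28 intervals had dCas9-p300(core) peaks only in such lists.

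The counts per list follow in part from the rule, which used these lists, so they are no test of peak number. Pool 3 replicate 1 had 5599 peaks with dCas9-p300(core) and 5322 with dCas9-VP16(10x), both with the identifier, and peaks at 28 and 5 of the intervals. The longest dCas9-p300(core) list, Adjacent replicate 1 with 24280 peaks, had the fewest of the 6. Ranked by p-value within their list, the peaks at the intervals had a median rank of 12813 of 24280 in Adjacent replicate 1, near the middle, and of 11818 of 16457 in Adjacent replicate 2 and 14058 of 18664 in IL1RN replicate 1, in the weaker part. In the short Pool 3 replicate 1 list they ranked high, at a median of 912 of 5599. With every list cut to its 1805 most significant peaks, the length of the shortest, 56 intervals met the rule and 0 of the 28 did.

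**Figure D5:**
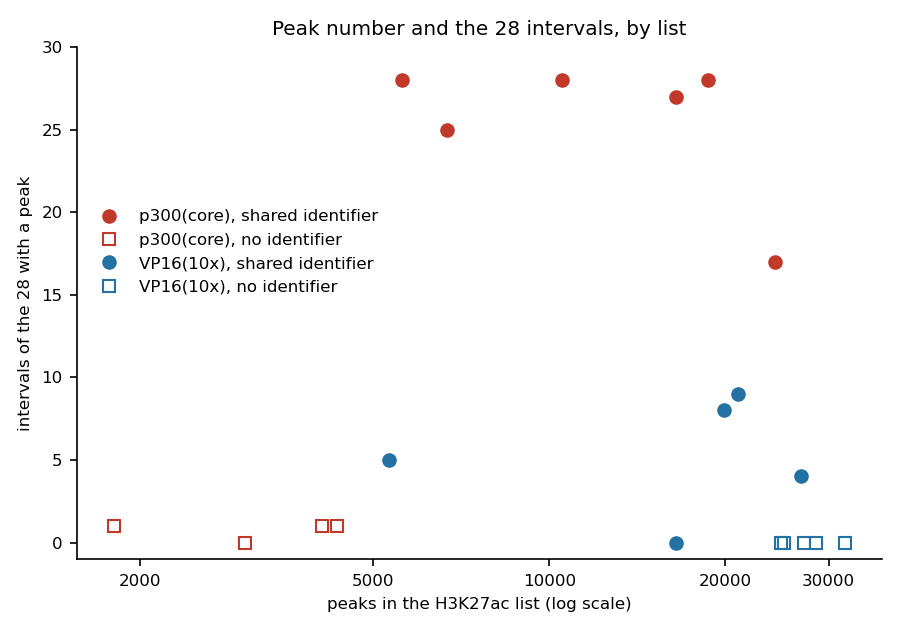
Intervals of the 28 with a peak (y axis) against the number of peaks in each of the 20 H3K27ac lists (x axis, log scale), by construct and identifier. Filled dCas9-p300(core) points lie at 17 to 28 across the range of peak number, filled dCas9-VP16(10x) points at 0 to 9, and open points at 0 or 1.

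The mirror of the rule, at least 5 dCas9-VP16(10x) and at most 2 dCas9-p300(core) lists, held for 5853 intervals (14.1%), and at least 5 lists had a peak at 10.7% of intervals with dCas9-p300(core) and 40.5% with dCas9-VP16(10x). Within lists that carry the identifier, with the same shares of lists required, 1286 of 36932 intervals met the rule and 1616 met its mirror, and 17 of the 28 remained, including 2 in the EP300 core. Within the other lists 1 of 32739 met it, near TP53TG3B, and 17025 met the mirror. In both sets of lists the mirror held for more intervals.

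Just inside the rule, by mean fold over dCas9-p300(core) lists, were EP300 exon 19 (37.0), near GOLGA6L6 (30.7), EP300 exon 22 (28.9), COL18A1 (21.6) and EP300 exon 20 (19.4). Just outside were 148 intervals with 4 dCas9-p300(core) lists and 5 with 3 dCas9-VP16(10x) lists. The highest of those were RAB11FIP3 (39.4), EPPK1 (26.9), near PLGLB1 (25.8), SSU72 (25.1) and a second interval near TP53TG3B (24.8; 4 lists against 0). Of the 153 intervals just outside, 11.1% repeated at least 10% of their 20-base words, between the 57.1% of the 28 and the 1.34% of all.

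The gRNAs searched gave no close match in the intervals. They were 87 sequences that the study lists for ERBSs, adjacent regions and promoters, some of them promoter gRNAs. The paper describes its IL1RN gRNAs as published before, and whether they are among the 87 was not checked. Over these 87, the fewest mismatches to 20 bases followed by NGG were 5, in the second interval near PPIAL4G and near GOLGA6L6. The median over the 28 intervals was 7, as over all intervals. Up to 4 mismatches were found in 0 of the 28 and 1.39% of all intervals.

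Among gene lists relevant to the constructs and the cells, 12 acetyltransferase genes had 39 H3K27ac intervals, of which 5 were among the 28 and 11 had more dCas9-p300(core) RNAPII lists, all 11 in EP300. Lists of 15 estrogen-responsive, 13 immediate early and 19 interferon-stimulated genes (18 of them annotated), and of 5 genes whose promoters are common in expression plasmids, had 33, 23, 17 and 8 intervals. None of these was among the 28, and Fisher's exact test called 0 of them in RNAPII at the adjusted threshold of 0.05.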

How the data were processed

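The authors sequenced ChIP libraries as single-end 50-base reads, aligned them to hg19 with bowtie 1.1.2, keeping reads with 1 alignment, removed duplicates with samtools and called peaks per library with MACS2 2.1.0.20140616. Control libraries and peak-calling options are not given in the sources used here. The deposited peak lists give fold enrichment (a ratio to background) and −log10 p-values and −log10 q-values, with no −log10 p below 10.0. They hold no read counts, so depth per library is unknown. The deposited normalized table served only to place the 19 targeted loci, and its 47 value columns were not used.

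Merging, Fisher's exact tests and Benjamini-Hochberg adjustment were run in Python 3.11.15 with scipy 1.17.1 and limma 3.58.1 as an alternative. An absent peak was counted as no peak. Genes are from GENCODE 44 lifted to hg19, and sequences are from the GRCh37 assembly. Named genes were the 12 intervals with the largest difference in lists, those in EP300 or a listed gene, those called in RNAPII, and 5 on each side of the threshold. Others were added after their values were seen, as were the sets by position and the repeat motifs searched. The intervals and gene lists were chosen with earlier results of these data known. On simulated lists with 20000 intervals, fewer than were tested here, the test recovered 83% of 200 changed intervals, with 1 false call. A simulation cannot separate the construct from the identifier, so these numbers give no error rate for the RNAPII calls above. Sequences are printed for 11 of the 28 intervals, and the others are not reported here.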

Additional observations from a re-analysis of the deposited data

Results flagged for a closer look

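The 28 intervals were screened for an outlying list among those with a dCas9-p300(core) H3K27ac peak, and 1 was flagged. Near NOC4L the fold was 18.3 in Pool 3 replicate 1 and the next of the 5 values was 13.3. Chance alone flags about 1 in 20 such groups. The H3K27ac lists also chose the intervals, and these 5 lists had different gRNA pools, so the flag is a description.

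HA peaks, for which no test between constructs was run, were found at the intervals above the 0 of the IL1RN control list of dCas9-VP16(10x). They were found at 12 intervals in dCas9-p300(core) ERBS replicate 1, at 8 in dCas9-p300(core) ERBS replicate 2, at 8 in dCas9-VP16(10x) Adjacent replicate 2 and at 3 in dCas9-VP16(10x) ERBS replicate 2. The first 3 of these lists carry the shared identifier and the IL1RN control list does not. HA lists of dCas9-VP16(10x) ERBS replicate 1 and Adjacent replicate 1, also without the identifier, had 0 as well.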

How the results depend on the processing

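The count of 28 intervals became 56 with each list cut to the length of the shortest and 60 with each cut to 5000 peaks, sharing 0 and 1 with the 28, 1286 with only identifier-bearing lists and 1 with only the others. It was 26 for peaks with −log10 p of at least 15 and 28 with a 100 bp overlap. Leaving out each list gave 11 to 28. For dCas9-p300(core) it was 11 with Pool 3 replicate 1 dropped, 13 with IL1RN replicate 1 or Pool 2 replicate 1, 14 with Adjacent replicate 2 and 16 with Pool 1 replicate 1. It was 17 when the list dropped was dCas9-VP16(10x) Adjacent replicate 1, either IL1RN library, or replicate 2 of Pool 1, 2 or 3, since the same share of 9 lists allows 1 list in place of 2.

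RNAPII calls of 156 and 50 intervals became 10204 and 1169 with limma on log2 of fold plus 1, with 10 of the 28 called, and 463 and 169 with peaks required in 4 lists (fewer intervals tested), with 6 called. Stricter peaks, a 100 bp overlap and shortened lists gave 125 to 173 and 47 to 58 calls. Leaving out a list gave 156 to 998, 50 to 253 and, of the 28, 4 to 7 (7 without dCas9-p300(core) Pool 2 replicate 1). The counts moved most without dCas9-p300(core) IL1RN replicate 1 (998 and 212), Pool 1 replicate 2 (767 and 183), Pool 2 replicate 1 (379 and 244), Pool 2 replicate 2 (805 and 170) or Pool 3 replicate 1 (465 and 173), or dCas9-VP16(10x) Pool 2 replicate 1 (353 and 253), Pool 2 replicate 2 (362 and 241) or Pool 3 replicate 2 (402 and 246). The cause was not tested. The 4 EP300 exons kept their call in every setting (adjusted p 0.00282 to 0.0173 with a list left out) except exon 23 with shortened lists (adjusted p = 0.0713).

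Same-numbered libraries did not deviate together (r from -0.0617 to 0.163 over 5 pools), and the replicate block gave 156 and 50 calls and 4 of the 28. A fit stratified by identifier could not be made for RNAPII. Without read counts, a peak below the caller's threshold cannot be told from no signal.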
